A study of Anthurium andraeanum with 18 samples.

Results

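RD22 (TRINITY_DN54005_c1_g3) and 2 entries named BURP3 (TRINITY_DN48122_c2_g1 and TRINITY_DN54005_c1_g1) are BURP domain genes expressed in leaves of Anthurium andraeanum, an ornamental aroid. They are 3 of 158487 genes that were assembled from the sequencing reads, and 3 of the 14 whose descriptions name a BURP family protein. They were picked by identifier because earlier results from the same libraries had shown large differences between temperatures in them. Their levels and fitted changes are therefore given as a description, with no p-value. The errors of their fitted changes were derived from a test statistic and are likewise only descriptive. The leaves came from 2 plant materials, called Ken and MH in the sample titles, at 3 temperature regimes with 3 libraries each, 18 in all. Ken control and MH control plants stayed at 25 °C. Ken 38 and MH 38 plants had passed 3 days at 38 °C by day and 33 °C by night. Ken 40 and MH 40 plants had then had 3 more days at 40 °C by day and 35 °C by night, so they had been through both steps. All plants were in full flower under 12 h of light and 12 h of dark. The labels give neither the identity of Ken and MH nor the day of control sampling, and regime and time in the chamber cannot be told apart. The titles call the libraries of a group biological replicates without saying whether each came from its own plant, so the errors and p-values measure the spread between these libraries.

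The BURP domain is a plant-specific protein domain that takes its name from its founding members, among them USP of Vicia faba seeds, RD22 of Arabidopsis and the beta subunit of polygalacturonase from tomato. BURP proteins carry a signal peptide and many are found in the cell wall. In Arabidopsis, RD22 is a marker of dehydration: its transcript rises with drought, salt and abscisic acid (ABA), and the transcription factors MYC2 and MYB2 activate its promoter. In tomato, the beta subunit binds a polygalacturonase, an enzyme that cuts pectin. BURP3 is the name of a rice member of the family.

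The names come from the closest Swiss-Prot entry and differ between databases. The nr description of RD22 named a BURP domain-containing protein 3 of oil palm, and that of BURP3 TRINITY_DN54005_c1_g1 named an RD22-like protein of a cherry. The RD22 entry was 732 bases long and came from 1 assembled transcript. BURP3 TRINITY_DN48122_c2_g1 had 793 bases and 5 transcripts, and BURP3 TRINITY_DN54005_c1_g1 had 1202 bases and 14 transcripts. RD22 and BURP3 TRINITY_DN54005_c1_g1 belonged to the same assembly component, which groups transcripts that share sequence, so reads may have been divided between them. Whether the entries are separate genes, alleles or pieces of 1 gene was not tested.

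Libraries held 15845190 to 22867268 counts. The leaf label was checked with markers of mesophyll, the photosynthetic tissue: 45 entries for light harvesting, Rubisco and photosystem proteins, 32 of them tested, summed to 93943 to 109027 TPM, a level scaled for gene length and library size, in the Ken control libraries and to 133413 to 152961 TPM in MH control. In heated leaves the mesophyll sum was 16102 to 19204 TPM in Ken 38, 1482 to 1968 TPM in Ken 40 and 426 to 831 TPM in MH 40. MH 38 replicate 3 stood apart from its group, with a mesophyll sum of 29912 TPM against 3552 and 2081 TPM in replicates 1 and 2. Fitted changes of BURP3 TRINITY_DN54005_c1_g1, and counts over lists of genes, that rest on it are given with and without it. For RD22 and BURP3 TRINITY_DN48122_c2_g1, such changes are given with their range when any 1 library is left out. Of the mesophyll entries tested, 21 fell and 1 rose in Ken 38, 26 fell and 1 rose in Ken 40, 26 fell and 1 rose in MH 38, and 28 fell and 1 rose in MH 40, each against its control. The called shares were 68.8, 84.4, 84.4 and 90.6%, while 36.2, 45.8, 47.4 and 67.4% of all tested genes were called. Xylem markers fell in 16, 22, 10 and 20 of 27 tested entries in the same order, and 2 rose in MH 38, so their called shares were 59.3, 81.5, 44.4 and 74.1%. Of 5 phloem markers 3, 3, 3 and 4 fell and 2, 1, 1 and 1 rose, and thus at least 80% were called. Of 5 tested guard cell markers 0, 1, 2 and 4 fell, and 1 rose in Ken 40. Of 4 seed protein markers 3, 2, 2 and 2 rose and 1 fell in each comparison, and their sum ran from 7.64 to 78.45 TPM over the libraries. Without MH 38 replicate 3, 48.6% of all tested genes were called in MH 38 against MH control. In that fit 27 of 34 tested mesophyll and 4 of 5 guard cell entries fell in MH 38, and the xylem, phloem and seed counts were as before. In whole leaves, fewer cells of a type and less RNA per cell cannot be told apart, and the part of these shifts in the BURP levels was not tested.

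In Ken, RD22 went from near absence at 25 °C to one of the most abundant leaf transcripts at 38/33 °C. Its level was 0.14, 0.96 and 0.25 TPM in the Ken control libraries, which rested on 2, 16 and 4 counts. In the Ken 38 libraries it was 1433, 871 and 1554 TPM. In the Ken 40 libraries it was 388, 535 and 319 TPM. The 3 groups did not overlap, and every Ken 40 library lay below every Ken 38 library and far above every control. The entries were picked for large differences between temperatures. Such a lack of overlap, here and in both BURP3 entries, therefore adds no support. By TPM, RD22 ranked between 46 and 103 among all assembled genes in the Ken 38 libraries. The fitted log2 change was 10.95 ± 1.24 (SE) for Ken 38 against Ken control, 9.41 ± 1.19 for Ken 40 against Ken control and -1.54 ± 0.79 for Ken 40 against Ken 38. Without Ken control replicate 2, which held most of the control counts, the first value was 12.13 and the second 10.59. Each SE of a fitted change was back-computed from the F statistic of the edgeR quasi-likelihood test. The ratio of a change to its SE therefore restates that statistic and adds no support.

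BURP3 TRINITY_DN48122_c2_g1 had nearly the same levels. It was at 0.25, 0.87 and 0.39 TPM in Ken control, on 3, 14 and 6 counts. It reached 1719, 1122 and 1871 TPM in Ken 38, where it ranked between 30 and 84 among all genes. It stood at 422, 578 and 389 TPM in Ken 40. Again no libraries of different regimes overlapped, and the replicates of each heated group ranked in the same order as in RD22. The fitted log2 changes were 11.12 ± 1.22, 9.44 ± 1.16 and -1.67 ± 0.78 in the order given for RD22. Without Ken control replicate 2 the first became 11.79 and the second 10.11.

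BURP3 TRINITY_DN54005_c1_g1 was the most abundant of the 3 in heated Ken leaves and the only one of them above 5 TPM in the Ken control libraries. There it was at 8.48, 8.48 and 5.17 TPM. In Ken 38 it was at 3305, 2488 and 2565 TPM, which placed it between rank 11 and rank 31 of all genes. In Ken 40 it was at 611, 890 and 854 TPM. The Ken groups did not overlap and followed the order of the other entries, with 38/33 °C above 40/35 °C above control. Its fitted log2 changes were 8.08 ± 1.61 for Ken 38 and 6.34 ± 1.49 for Ken 40 against Ken control, and -1.74 ± 1.21 between the heated groups. These errors draw on the spread in all 6 groups, among them MH 38, where its libraries ran from 14.9 to 1238 TPM.

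**Figure D1:**
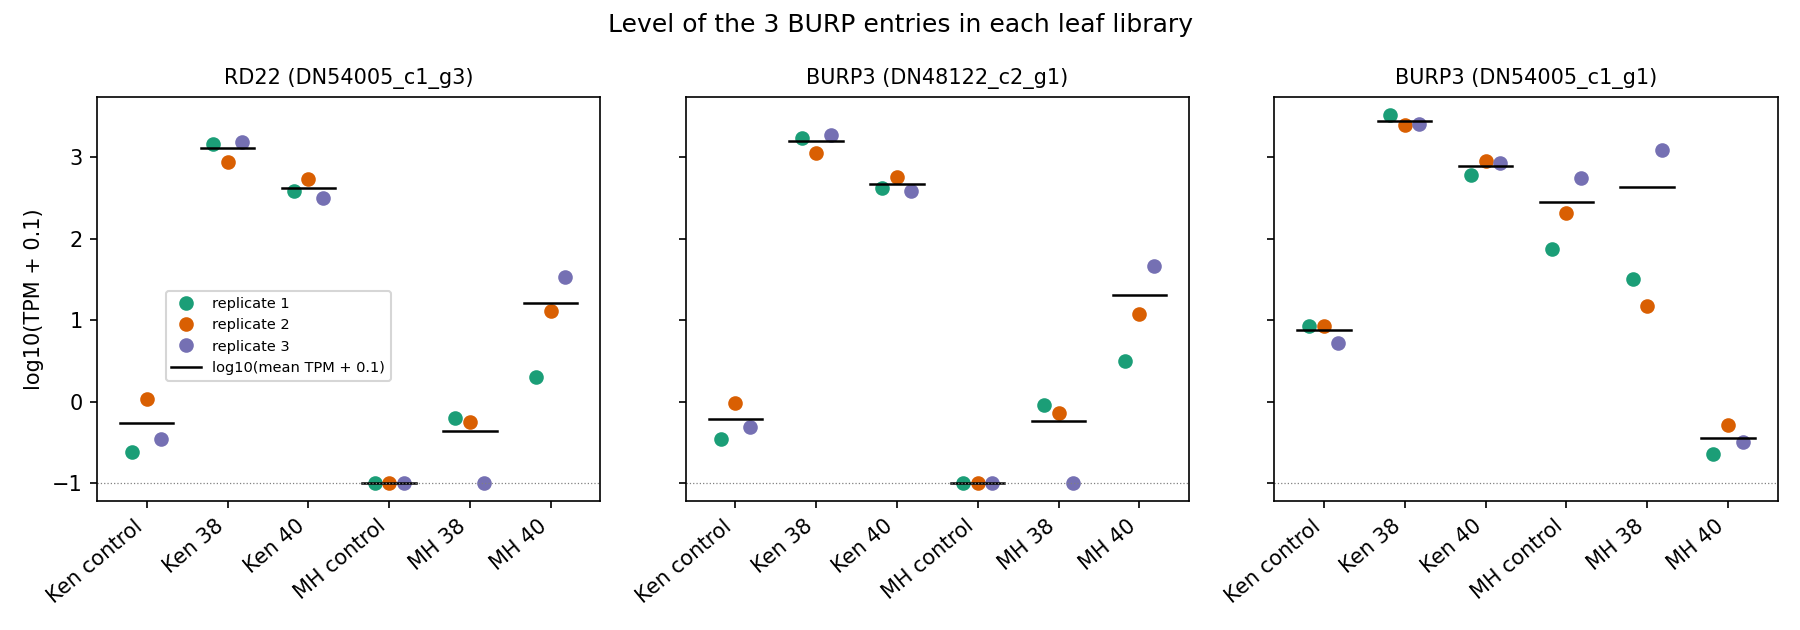
Level of RD22 and the BURP3 entries in each of the 18 leaf libraries, as log10(TPM + 0.1), with points coloured by replicate and a bar at the group mean. RD22 and BURP3 TRINITY_DN48122_c2_g1 are at 0 TPM (dotted line) in all MH control libraries and peak in Ken 38, while BURP3 TRINITY_DN54005_c1_g1 also has 74.6 to 553 TPM in MH control and under 1 TPM in MH 40.

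In MH the entries parted. RD22 and BURP3 TRINITY_DN48122_c2_g1 had no count in any MH control library, where a count of 0 allows up to 0.131 to 0.159 CPM (counts scaled by library size), a limit that covers counting error only. RD22 was at 0.53, 0.46 and 0 TPM in MH 38, on 8, 7 and 0 counts, and at 1.91, 12.8 and 34.1 TPM in MH 40. BURP3 TRINITY_DN48122_c2_g1 was at 0.80, 0.62 and 0 TPM in MH 38 and at 3.07, 11.7 and 45.8 TPM in MH 40. The MH 40 libraries were above all other MH libraries in both entries, and they differed among themselves by over 10-fold. The MH 38 libraries overlapped with the MH control libraries, since replicate 3 also held no count. With MH control set to a floor of 3 counts in each library, MH 40 was at least 51.8-fold higher than MH control in RD22 and at least 54.5-fold higher in BURP3 TRINITY_DN48122_c2_g1. Without MH 40 replicate 3 these bounds were 23.5 and 19.99. Against MH 38, the MH 40 log2 difference was 5.57 ± 1.12 in RD22 and 5.24 ± 1.06 in BURP3 TRINITY_DN48122_c2_g1. Without MH 40 replicate 3 these were 4.42 and 3.78.

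BURP3 TRINITY_DN54005_c1_g1 had the opposite pattern in MH. It was at 74.6, 209 and 553 TPM in the MH control libraries, well above Ken control. In MH 38 it was at 31.6, 14.9 and 1238 TPM, so replicates 1 and 2 lay below every MH control library and replicate 3 above them all. In MH 40 it was at 0.13, 0.41 and 0.22 TPM, on 4, 11 and 4 counts, below every library of every other group. The fitted log2 change of MH 40 was -10.67 ± 1.89 against MH control and -10.79 ± 1.89 against MH 38. For MH 38 against MH control it was 0.12 ± 1.18, and without MH 38 replicate 3 it was -4.11. Without that library the change of MH 40 against MH 38 was -6.59. The high library was the one with the high mesophyll marker sum given above, and the part of that difference in its level was not tested.

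Ordered by mean TPM, RD22 ran from Ken 38 (1286 ± 365, SD, n = 3) through Ken 40 (414 ± 110) and MH 40 (16.3 ± 16.4) to Ken control (0.450 ± 0.445), MH 38 (0.330 ± 0.288) and MH control (0). BURP3 TRINITY_DN48122_c2_g1 had the same order, with 1571 ± 396, 463 ± 101, 20.2 ± 22.6, 0.503 ± 0.325, 0.473 ± 0.420 and 0 TPM. In both, Ken control overlapped with MH 38 and MH 38 with MH control, and the libraries of the other neighbours did not overlap. BURP3 TRINITY_DN54005_c1_g1 ran from Ken 38 (2786 ± 451) through Ken 40 (785 ± 152), MH 38 (428 ± 702), MH control (279 ± 247) and Ken control (7.38 ± 1.91) to MH 40 (0.253 ± 0.143). Here Ken 40 overlapped with MH 38 and MH 38 with MH control.

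Between materials at the same regime, the entries were lower in heated MH than in heated Ken. At 38/33 °C the fitted log2 difference of MH minus Ken was -12.14 ± 1.30 in RD22, -11.97 ± 1.26 in BURP3 TRINITY_DN48122_c2_g1 and -2.86 ± 1.26 in BURP3 TRINITY_DN54005_c1_g1. Without MH 38 replicate 3 the last value was -7.09. With 1 library left out, RD22 ran from -12.64 to -11.61 and BURP3 TRINITY_DN48122_c2_g1 from -12.69 to -11.43. At 40/35 °C the differences were -5.03 ± 0.92, -5.05 ± 0.90 and -11.90 ± 1.95. At 25 °C BURP3 TRINITY_DN54005_c1_g1 was higher in MH by 5.11 ± 1.41 on the log2 scale. Its heat response in MH minus that in Ken came to -7.96 ± 1.88 at 38/33 °C, or -12.20 without MH 38 replicate 3, and to -17.01 ± 2.41 at 40/35 °C. As background to these differences, the edgeR quasi-likelihood test called 36.2% of all 70022 tested genes in Ken 38 against Ken control, 45.8% in Ken 40 against Ken control and 30.5% between the heated Ken groups. It called 47.4% in MH 38 and 67.4% in MH 40 against MH control, and 26.2% between the heated MH groups. Between materials it called 21.8% at 25 °C, 34.7% at 38/33 °C and 48.5% at 40/35 °C.

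RD22 and BURP3 TRINITY_DN48122_c2_g1 kept a near constant ratio across regimes and materials, which the third entry did not. TPM is scaled by gene length, so levels of different entries can be set side by side. Within a library, the ratio of RD22 to BURP3 TRINITY_DN48122_c2_g1 was 0.776 to 0.834 in Ken 38, 0.819 to 0.926 in Ken 40 and 0.622 to 1.09 in MH 40. In the 2 MH 38 libraries with counts it was 0.663 and 0.742. The Pearson correlation of their log2 CPM over the 18 libraries was 0.999. These libraries share groups, so the value describes the pattern and carries no p.

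The ratio of BURP3 TRINITY_DN54005_c1_g1 to RD22 was 1.65 to 2.86 in Ken 38 and 1.58 to 2.67 in Ken 40. It was 32.4 and 59.7 in the MH 38 libraries with RD22 counts, and 0.00645 to 0.0681 in MH 40. BURP3 TRINITY_DN54005_c1_g1 was thus above RD22 in every Ken 38 and Ken 40 library and below it in all 3 MH 40 libraries. Their correlation over the 18 libraries was 0.39.

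**Figure D2:**
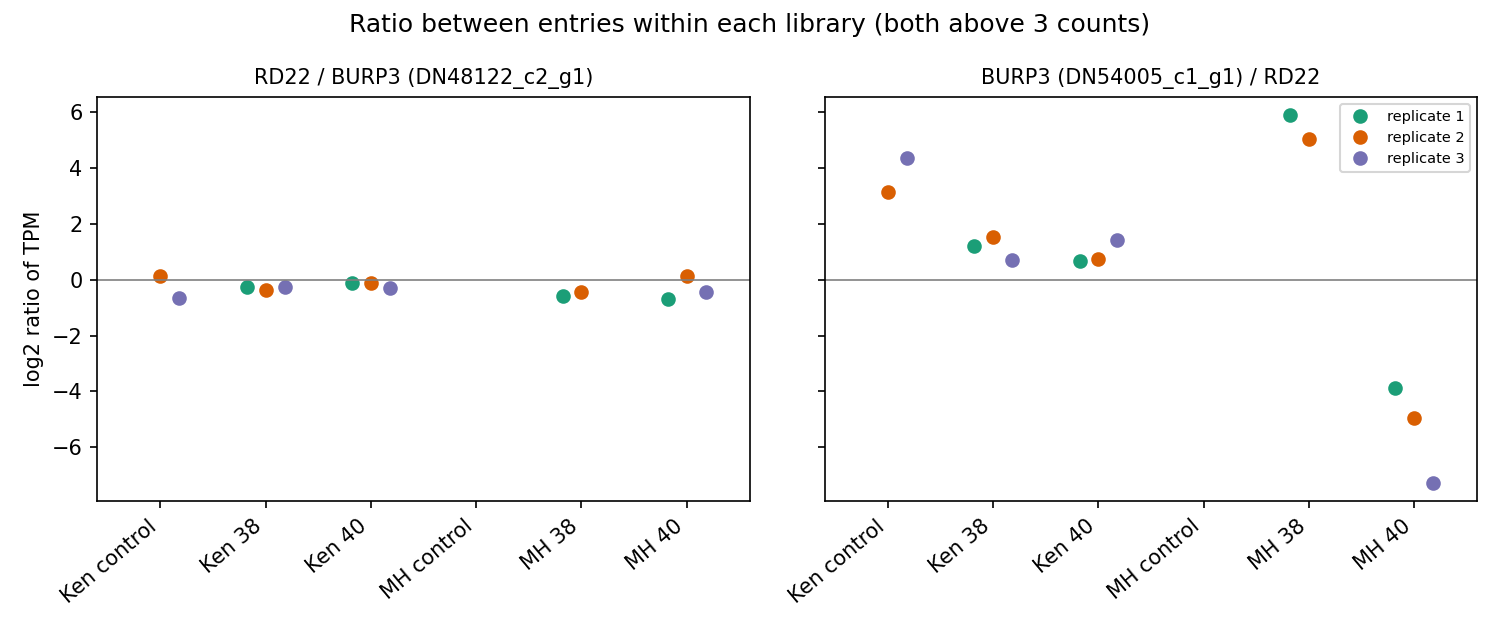
Ratio of TPM between entries within each library on a log2 scale, for libraries in which both had over 3 counts, with points coloured by replicate. RD22 to BURP3 TRINITY_DN48122_c2_g1 (left) stays between 0.622 and 1.10, while BURP3 TRINITY_DN54005_c1_g1 to RD22 (right) runs from 59.7 in an MH 38 library to 0.00645 in an MH 40 library.

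The levels of the 14 BURP family entries were summed in each library to give the share of each entry. Entries that are pieces of 1 gene would be counted more than once in such a sum, which was not tested. In the Ken control libraries the summed level was 435 to 471 TPM, of which RD22 and both BURP3 entries held 1.23 to 2.36%. In Ken 38 the sum was 4611 to 6545 TPM and the 3 entries held 97.2 to 98.7% of it. In Ken 40 the sum was 1435 to 2011 TPM and their share 99.0 to 99.7%. The leading entry in all Ken control libraries was another BURP3 entry, TRINITY_DN60955_c1_g1, with 55.8 to 69.5% of the sum. The 3 entries made up 0.459 to 0.651% of all counts of the Ken 38 libraries.

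In MH control the family sum was 437, 1192 and 1565 TPM, of which the 3 entries held 17.1, 17.5 and 35.4%, all of it BURP3 TRINITY_DN54005_c1_g1. The leading entry was BURP10 TRINITY_DN49045_c0_g1 in replicate 1, with 37.0% of the sum, and BURP3 TRINITY_DN39971_c0_g2 in replicates 2 and 3, with 56.4 and 46.3%. In MH 38 the sum was 291, 351 and 1324 TPM and their share 11.3, 4.56 and 93.5%. In MH 40 the sum was 149, 190 and 155 TPM and their share 3.44, 13.1 and 51.7%. BURP3 TRINITY_DN58764_c0_g1 led in MH 38 replicates 1 and 2, with 65.2 and 70.9% of the sum, and in MH 40 replicates 1 to 3 with 96.2, 86.3 and 47.2%. MH 38 replicate 3 was led instead by BURP3 TRINITY_DN54005_c1_g1.

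**Figure D3:**
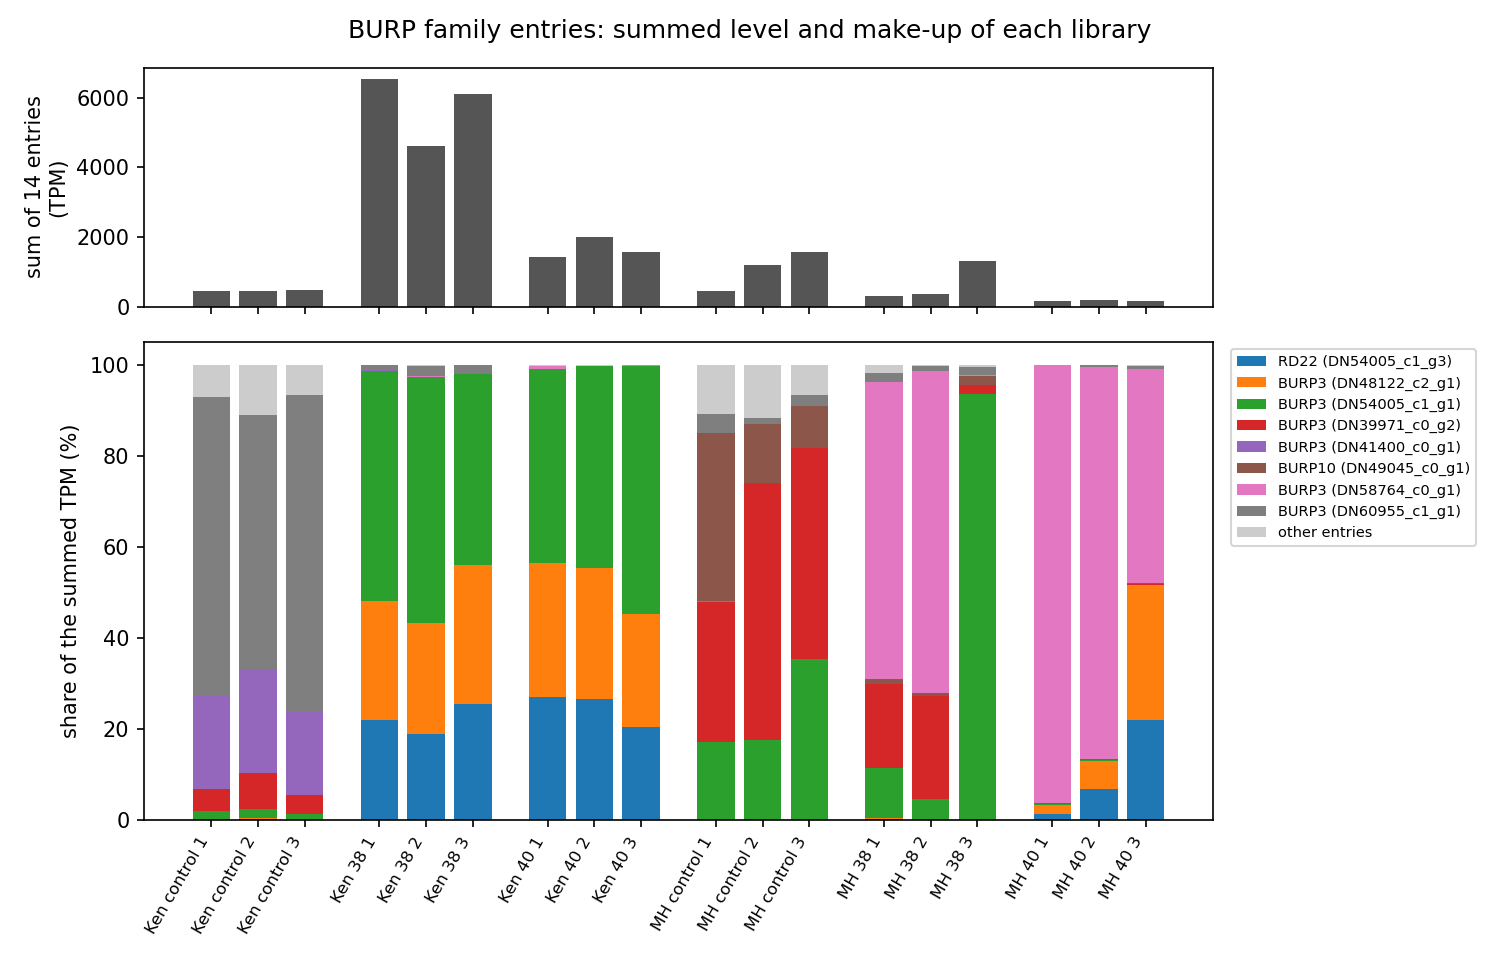
Summed TPM of the 14 BURP family entries in each library (top) and the share of each entry that reaches 20% in some library (bottom). The Ken 38 sums of 4611 to 6545 TPM are made almost wholly of RD22 and the BURP3 entries TRINITY_DN48122_c2_g1 and TRINITY_DN54005_c1_g1, while TRINITY_DN60955_c1_g1 leads in Ken control and TRINITY_DN58764_c0_g1 in MH 40.

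The other 11 BURP entries are what remains of the family once the 3 entries picked for large differences are taken out. Their counts of rises and falls therefore depend on that choice. Of the 11, 10 passed the filter on low counts and were tested, and more of these fell than rose in each heated group against its control. In Ken 38 against Ken control 1 rose and 6 fell, while of all tested genes 20.3% rose and 15.9% fell. Scaled by library totals alone, or with scaling factors from described genes, 2 rose and 4 fell. In Ken 40 against Ken control 2 rose and 7 fell (25.1% and 20.7% of all tested genes). In MH 38 against MH control 1 rose and 5 fell (30.1% and 17.3%), or 1 and 6 without MH 38 replicate 3, and in MH 40 against MH control 1 rose and 6 fell (42.7% and 24.6%). The median log2 change of the 10 was -1.72, -7.77, -2.88 and -7.19 in these comparisons, against 0.42, 0.30, 0.73 and 1.03 over all tested genes and -0.07, -0.10, -0.08 and -0.29 over those with a description. From 38/33 °C to 40/35 °C 0 rose and 7 fell in Ken (14.3% and 16.2%), and 0 rose and 5 fell in MH (11.2% and 15% of all tested genes). The MH count was the same without MH 38 replicate 3, where 18.4% of all tested genes were called in place of 26.2%. Mesophyll markers were lower in the same libraries.

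BURP3 TRINITY_DN60955_c1_g1, the main BURP entry of unheated Ken leaves, was at 286, 244 and 327 TPM in Ken control, 70.1, 105 and 105 TPM in Ken 38 and 2.19, 1.03 and 0.67 TPM in Ken 40. The groups did not overlap, and the log2 change in Ken 40 was -8.07 ± 0.93 (edgeR quasi-likelihood test, Benjamini-Hochberg adjusted p = 1.6e-05). In Ken 38 it was -2.005 ± 0.689 (edgeR adjusted p = 0.038). This call was lost under 9 of 14 alternatives, with adjusted p up to 0.14, among them scaling by library totals alone and each Ken control or Ken 38 library left out. In MH it was at 17.7, 16.3 and 36.6 TPM in the control and at 0.11, 0.75 and 1.05 TPM in MH 40 (log2 change -5.91 ± 0.91, edgeR adjusted p = 0.00011). A further BURP3 entry, TRINITY_DN41400_c0_g1, was present in Ken control at 88.4, 99.6 and 86.0 TPM and fell to 3.85 to 6.47 TPM in Ken 38 and 0.49 to 0.83 TPM in Ken 40. In MH it never exceeded 0.35 TPM. Its MH control against Ken control difference was -10.38 ± 0.56 on the log2 scale (edgeR adjusted p = 5.4e-10).

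MH control leaves held other family members. BURP3 TRINITY_DN39971_c0_g2 was at 135, 672 and 724 TPM there and fell to 54.0, 79.8 and 26.6 TPM in MH 38 and to 0.14, 0.11 and 0.13 TPM in MH 40, where its log2 change was -12.66 ± 0.87 (edgeR adjusted p = 6.5e-08). In Ken it went from 19.7 to 34.4 TPM in the control to 0.05 to 0.23 TPM in Ken 40, a log2 change of -8.32 ± 0.80. BURP10, named after a rice protein, was at 161, 154 and 146 TPM in MH control and at no more than 0.24 TPM in any Ken library (TRINITY_DN49045_c0_g1, log2 difference between controls 9.99 ± 1.22, edgeR adjusted p = 8.3e-05). It fell to 2.92, 1.66 and 26.7 TPM in MH 38. BURP3 TRINITY_DN41449_c0_g1 was at 11.3, 100 and 70.8 TPM in MH control and at most 2.45 TPM in every Ken library. Of the 10 tested entries 3 were higher and 3 lower in MH control than in Ken control (10.1% and 11.7% of all tested genes). At 38/33 °C 3 were higher and 4 lower in MH (19.9% and 14.7%), or 3 and 6 without MH 38 replicate 3, and at 40/35 °C 1 was higher and 2 lower (28.2% and 20.3%). The difference of heat responses was called higher in 1 and lower in 1 at 38/33 °C (6.07% and 4.78%) and at 40/35 °C (10.3% and 11.1%). Without MH 38 replicate 3 the first became 1 and 4. Leaving that library out also moved the share of all tested genes called in either direction. It went from 34.7 to 39.4% for MH 38 against Ken 38 and from 10.8 to 17.9% for the difference at 38/33 °C.

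GP1, the entry named after the tomato polygalacturonase beta subunit, and BURP12 fell in both materials. GP1 (TRINITY_DN56494_c0_g7) was at 10.8 to 18.8 TPM in Ken control and 14.02 to 17.5 TPM in MH control, and at no more than 0.05 TPM in any Ken 40 or MH 40 library. BURP12 (TRINITY_DN59971_c1_g4) was at 15.5 to 21.6 TPM and 18.9 to 25.0 TPM in the controls, and at no more than 0.25 TPM at 40/35 °C. Both passed the test in Ken 38, Ken 40, MH 38 and MH 40 against the control of the same material.

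A single BURP entry outside the chosen 3, BURP3 TRINITY_DN58764_c0_g1, rose in heated MH leaves. BURP3 TRINITY_DN58764_c0_g1 was at 0.40, 0.03 and 0.04 TPM in MH control, 190, 249 and 1.72 TPM in MH 38 and 143, 164 and 73.1 TPM in MH 40. The groups did not overlap with the control, and the low MH 38 library was replicate 3. The log2 change was 8.99 ± 1.71 in MH 38 (edgeR adjusted p = 0.0011) and 8.81 ± 1.71 in MH 40 (edgeR adjusted p = 0.00068). Over 15 alternatives each, which include leaving out MH 38 replicate 3 and MH control replicate 3 together, the changes ran from 8.42 to 11.13 and from 8.30 to 10.91. In Ken it was at 0.03 to 0.16 TPM in the control, 1.76 to 4.02 TPM in Ken 38 and 1.16 to 8.77 TPM in Ken 40. The Ken 40 change passed the test and was lost under 5 of 14 alternatives (edgeR adjusted p up to 0.17), among them each Ken control library and Ken 40 replicate 1 left out. The test of the difference of responses did not call it at 38/33 °C (log2 4.27 ± 3.10) or at 40/35 °C (3.90 ± 3.06).

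The 3 remaining entries were low. BURP3 TRINITY_DN63681_c0_g2 was at 0.06, 0 and 0.03 TPM in Ken control, on 2, 0 and 1 counts, at 2.14, 3.18 and 2.78 TPM in Ken 38 and at 0.79, 1.39 and 1.29 TPM in Ken 40. It rose in Ken 38 and in Ken 40 against Ken control (edgeR adjusted p = 2.0e-05 and 0.00015) and held no count in any MH library. It was the entry counted as risen in Ken 38, and with BURP3 TRINITY_DN58764_c0_g1 it made up those risen in Ken 40. An RD22 entry of 1346 bases (TRINITY_DN28009_c0_g1) did not exceed 3.20 TPM. The second RD22 fragment, of 208 bases (TRINITY_DN13686_c0_g1), held 20 counts in all and was not tested. Other pieces of the assembly component of BURP3 TRINITY_DN48122_c2_g1 had no BURP description and stayed under 5 TPM.

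**Figure D4:**
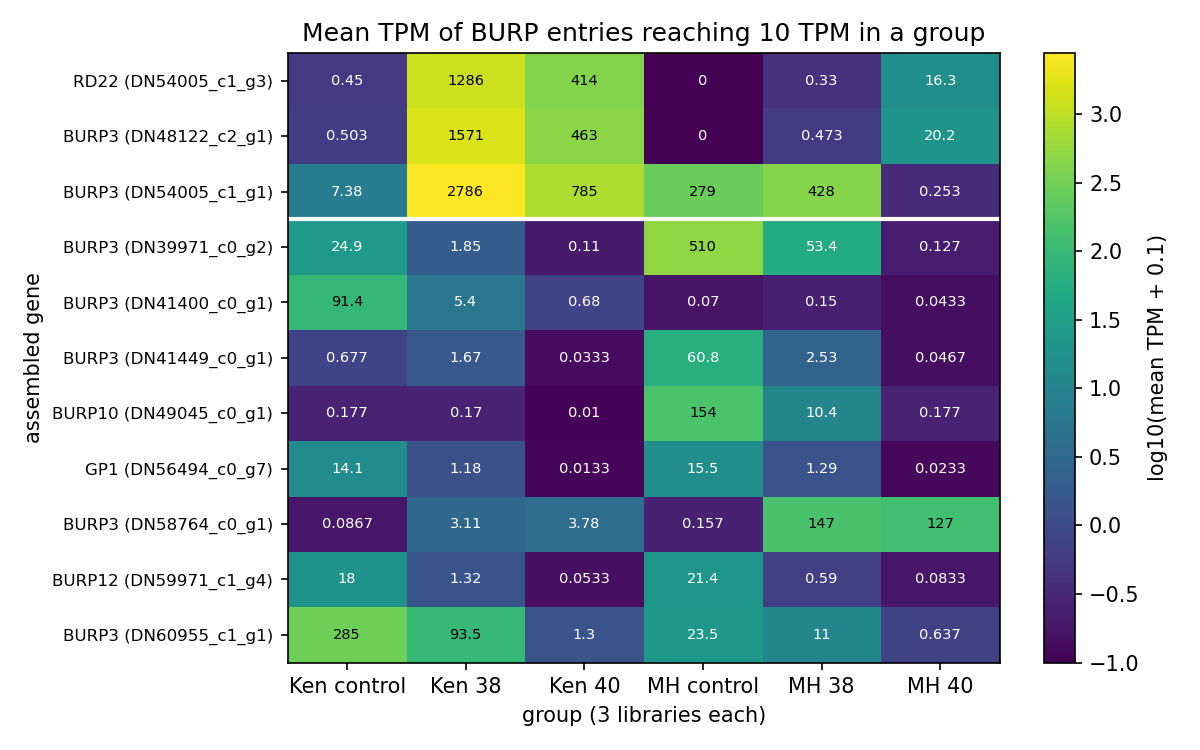
Mean TPM over 3 libraries (printed in each cell, colour on a log10 scale) of the BURP entries that reach 10 TPM in a group, with RD22 and the BURP3 entries chosen with it above the white line. Below the line most values fall from control to 40/35 °C in both materials, and BURP3 TRINITY_DN58764_c0_g1 goes from 0.157 to 127 TPM in MH.

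Genes around RD22 in the dehydration and ABA pathways and in the wall are given from 5 lists of descriptions, which were drawn up with earlier results of these libraries known. Dehydration-responsive genes, such as dehydrins and other late embryogenesis abundant proteins that protect cells losing water, changed in both directions. Of 53 tested, 16 rose and 12 fell in Ken 38, 21 and 13 in Ken 40, 15 and 13 in MH 38, and 16 and 20 in MH 40. The called shares were 52.8, 64.2, 52.8 and 67.9%, against backgrounds of 36.2, 45.8, 47.4 and 67.4%. The median log2 changes were 0.05, 0.21, 0.10 and 0.00, beside 0.42, 0.30, 0.73 and 1.03 over all tested genes. Scaled by library totals alone, 21 rose and 7 fell, 25 and 9, 28 and 9, and 26 and 13, and with scaling factors from described genes 22 rose and 16 fell in MH 40. With 13 entries that the descriptions caught by accident left out, 16 rose and 5 fell in Ken 38, 17 and 9 in Ken 40, 15 and 6 in MH 38, and 15 and 11 in MH 40. In MH 38, 15 of the full list rose and 17 fell without replicate 3. COR410 (TRINITY_DN51367_c1_g6), a dehydrin, rose from 65.4 ± 10.3 to 664 ± 13.1 TPM in Ken 38 and to 700 ± 57.8 TPM in Ken 40 (log2 changes 2.87 ± 0.18 and 3.02 ± 0.18, edgeR adjusted p = 5.1e-11 and 1.9e-11). Another dehydrin (TRINITY_DN52547_c4_g1) rose from 33.3 ± 10.3 to 448 ± 43.8 TPM in Ken 38. COR413PM2 (TRINITY_DN38198_c1_g1), a membrane protein of cold-stressed plants, rose from 1.92 ± 0.580 to 63.3 ± 8.22 TPM in Ken 40 and from 1.77 ± 0.122 to 48.4 ± 12.2 TPM in MH 40. DREB2B (TRINITY_DN38333_c2_g3), a transcription factor that binds dehydration-responsive elements, rose from 0.383 ± 0.0321 TPM in MH control to 51.4 ± 21.8 TPM in MH 38 and 17.1 ± 1.73 TPM in MH 40. COR413PM2 and DREB2B thus rose in MH. RD22 also went up there, from 0 TPM in MH control to 16.3 ± 16.4 TPM in MH 40, with at most 34.1 TPM in a library.

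For ABA synthesis and signalling genes, whether falls or rises were more frequent depended on the scaling. Of 41 tested genes 7 rose and 12 fell in Ken 38, 11 and 14 in Ken 40, 5 and 17 in MH 38, and 8 and 24 in MH 40, with called shares of 46.3, 61.0, 53.7 and 78.0% against the same backgrounds and median log2 changes of -0.50, -0.22, -0.51 and -0.72. Scaled by library totals alone, 13 rose and 9 fell, 14 and 11, 15 and 8, and 16 and 15. With scaling factors from described genes 9 rose and 10 fell, 12 and 12, 8 and 13, and 10 and 16. With MH 38 replicate 3 left out, 5 rose and 20 fell in MH 38. ABF4 (TRINITY_DN51406_c1_g2), a bZIP factor that binds ABA-responsive elements, rose from 2.28 ± 0.409 to 16.2 ± 1.55 TPM in Ken 38 and 17.7 ± 0.654 TPM in Ken 40. The ABA receptor PYL4 (TRINITY_DN58780_c2_g1) rose from 0.910 ± 0.236 to 24.2 ± 11.6 TPM in Ken 40. SRK2E (TRINITY_DN47417_c1_g2), a kinase that passes on the ABA signal, fell from 84.8 ± 4.25 to 26.0 ± 2.01 TPM in Ken 38. In MH, CYP707A4 (TRINITY_DN38535_c0_g1), which breaks ABA down, fell from 11.2 ± 4.47 to 0.870 ± 0.365 TPM in MH 38 and 0.380 ± 0.123 TPM in MH 40. The receptor PYL8 (TRINITY_DN54230_c0_g3) fell from 60.4 ± 11.7 to 12.1 ± 2.36 TPM in MH 40, and the kinase SAPK6 (TRINITY_DN47413_c0_g1) from 106 ± 1.57 to 61.5 ± 14.2 TPM in MH 38.

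A list of 24 genes held MYC2 and MYB2, the factors that activate RD22 in Arabidopsis, and other factors matched by name or description, such as MYB108 and MYB44. In Ken 38 7 rose and 3 fell (41.7% called), in Ken 40 9 and 8 (70.8%), in MH 38 3 and 4 (29.2%), and in MH 40 5 and 17 (91.7%). All tested genes were called at 36.2, 45.8, 47.4 and 67.4%, so the list was near the background in Ken 38 and below it in MH 38. The median log2 changes were 0.51, 0.86, -0.58 and -2.52, beside 0.42, 0.30, 0.73 and 1.03 over all tested genes. Scaled by library totals alone, 5 rose and 1 fell in MH 38 and 6 rose and 12 fell in MH 40, and with scaling factors from described genes 4 rose and 1 fell in MH 38. The Ken 38 count of 10 became 16, and the MH 38 count of 7 became 2, when only the groups compared were fitted. Without MH 38 replicate 3, 3 rose and 8 fell in MH 38, and without MH control replicate 1 or MH 38 replicate 2 the MH 38 count was 4. MYC2 TRINITY_DN56287_c0_g3 rose from 10.3 ± 1.74 to 36.4 ± 2.38 TPM in Ken 38 (log2 change 1.34 ± 0.29, edgeR adjusted p = 0.0011), and MYC2 TRINITY_DN48220_c0_g1 from 6.02 ± 2.81 to 24.1 ± 5.10 TPM. In MH 40 the first fell from 25.7 ± 9.13 to 8.91 ± 2.98 TPM (log2 change -2.27 ± 0.30, edgeR adjusted p = 1.9e-06). Its MH 38 level of 21.3 ± 7.14 TPM overlapped with the control, and the call there (log2 change -0.95 ± 0.29, edgeR adjusted p = 0.011) was lost under 5 of 15 alternatives, when scaled by library totals alone (-0.15, edgeR adjusted p = 0.63), with scaling factors from described genes, with only the groups compared, and without MH control replicate 1 or MH 38 replicate 2. A MYC2 entry that fell in Ken 40 was TRINITY_DN60550_c0_g2, from 18.8 ± 3.11 to 7.37 ± 0.558 TPM. MYB108 (TRINITY_DN55620_c0_g1), a relative of MYB2, rose from 0.160 ± 0.212 to 10.1 ± 4.66 TPM in Ken 40. MYB44 (TRINITY_DN46687_c3_g1) fell from 20.1 ± 6.69 to 5.39 ± 1.82 TPM in MH 40.

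Pectin-modifying enzymes fell more often than they rose. Of 115 tested entries 13 rose and 52 fell in Ken 38, 21 and 61 in Ken 40, 11 and 61 in MH 38, and 11 and 84 in MH 40, with called shares of 56.5, 71.3, 62.6 and 82.6% against the backgrounds above and medians of -1.21, -1.60, -1.51 and -3.13. Scaled by library totals alone, 18 rose and 39 fell, 29 and 49, 27 and 47, and 23 and 75. In MH 38 without replicate 3, 12 of 123 tested rose and 74 fell. PAE8 (TRINITY_DN63659_c1_g1), which removes acetyl groups from pectin, fell from 16.5 ± 0.776 to 0.860 ± 0.376 TPM in Ken 40 and from 54.2 ± 8.60 to 1.10 ± 0.0808 TPM in MH 40 (log2 changes -4.90 ± 0.30 and -7.32 ± 0.34, edgeR adjusted p = 3.3e-11 and 2.4e-13). A second PAE8 entry (TRINITY_DN48192_c1_g2) fell from 33.3 ± 5.76 to 6.64 ± 1.09 TPM in MH 40. Against this direction, a polygalacturonase similar to ADPG2 (TRINITY_DN36572_c1_g1), which cuts pectin chains, rose from 0.620 ± 0.174 to 19.5 ± 3.61 TPM in Ken 38 and 11.2 ± 0.289 TPM in Ken 40.

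Expansins and xyloglucan endotransglucosylases (XTH), loosen and rejoin wall polymers. In Ken 38 6 of 47 rose and 7 fell (27.7% called), and 26 were called when only the groups compared were fitted. In Ken 40 10 rose and 17 fell (57.4%), in MH 38 4 and 20 (51.1%), and in MH 40 7 and 27 (72.3%). Beside the 36.2, 45.8, 47.4 and 67.4% of all tested genes, the called share was below the background in Ken 38 and near it in MH 38 and MH 40. Of all tested genes 17.3% fell in MH 38 and 24.6% in MH 40, beside the 20 and 27 of 47 here. The list medians were 0.27, -0.53, -0.66 and -3.67, beside 0.42, 0.30, 0.73 and 1.03 over all tested genes. Scaled by library totals alone, 12 rose and 6 fell in Ken 38, 13 and 12 in Ken 40, and 11 and 15 in MH 38, and with scaling factors from described genes 10 rose and 6 fell in Ken 38 and 8 rose and 19 fell in MH 38. Leaving out MH 38 replicate 3, 6 of 50 tested rose and 27 fell there. The expansin-like EXLA2 (TRINITY_DN51678_c2_g2) rose from 0.540 ± 0.310 to 15.45 ± 2.48 TPM in Ken 38, and XTH8 (TRINITY_DN44920_c1_g2) from 4.603 ± 0.343 to 24.2 ± 7.31 TPM in Ken 40. XTH28 (TRINITY_DN50220_c0_g1) fell from 39.0 ± 3.76 to 11.9 ± 0.748 TPM in Ken 40. In MH, EXPA1 (TRINITY_DN52909_c1_g4) fell from 21.4 ± 11.1 to 0.120 ± 0.0265 TPM and XTH22 (TRINITY_DN44028_c0_g2) from 247 ± 97.7 to 19.4 ± 13.8 TPM in MH 38. XTH30 (TRINITY_DN50220_c0_g5) fell from 1057 ± 277 to 127 ± 15.3 TPM in MH 40, and another XTH30 entry (TRINITY_DN50909_c0_g6) from 386 ± 101 to 56.2 ± 4.71 TPM.

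Patterns most like those of the 3 entries were sought among 15734 described genes that reach 10 TPM in some group, by the Pearson correlation of log2 CPM over the 18 libraries. The values describe likeness, with no p. RD22 and BURP3 TRINITY_DN48122_c2_g1 were each other's nearest gene. Next to both came a primary amine oxidase-like gene (TRINITY_DN50563_c0_g4, r = 0.972 with RD22), an uncharacterised protein (TRINITY_DN55907_c1_g2, 0.968), a putative glutamine amidotransferase (TRINITY_DN39314_c1_g2, 0.965) and PDCD4 (TRINITY_DN37902_c0_g3, 0.963). In Ken 38 and Ken 40 their levels were well below that of RD22. The amine oxidase-like gene was at 0.0300 ± 0.0520 TPM in Ken control, 14.7 ± 2.47 TPM in Ken 38, 9.21 ± 0.676 TPM in Ken 40 and 0.603 ± 0.582 TPM in MH 40. The uncharacterised protein was at 1.64 ± 0.892 TPM in Ken control, 100.05 ± 38.3 TPM in Ken 38 and 4.203 ± 4.425 TPM in MH 40. PDCD4 had a much smaller range, from 11.1 ± 1.10 TPM in MH control and 11.3 ± 0.829 TPM in Ken control to 67.6 ± 14.9 TPM in Ken 38, and in both controls, MH 38 and MH 40 its mean was above that of RD22. By rank correlation, 2 of the 5 nearest genes of RD22 stayed on the list.

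For BURP3 TRINITY_DN54005_c1_g1, 3 of the 5 nearest genes were water channel genes, and which genes were nearest depended on the scaling. Its nearest gene was PIP1-2 (TRINITY_DN48950_c1_g1, r = 0.982), an aquaporin of the plasma membrane. WRKY65 (TRINITY_DN54368_c0_g1, 0.973), a transcription factor, a gene described as a major intrinsic protein (TRINITY_DN49929_c1_g3, 0.968), which is the aquaporin family, PIP1-3 (TRINITY_DN45196_c1_g4, 0.964) and the potassium transporter HAK12 (TRINITY_DN60100_c0_g4, 0.954) followed. PIP1-2 was at 401 ± 56.1 TPM in Ken control, 1897 ± 149 TPM in Ken 38, 1118 ± 145 TPM in Ken 40, 907 ± 305 TPM in MH control, 1141 ± 940 TPM in MH 38 and 220 ± 16.6 TPM in MH 40. WRKY65 was at 9.27 ± 2.37, 210 ± 10.3, 63.8 ± 9.68, 80.4 ± 22.2, 48.2 ± 49.8 and 4.26 ± 1.93 TPM in the same order. Both shared the high MH 38 replicate 3, and with it and MH control replicate 3 left out PIP1-2 remained nearest, at 0.9896. PIP1-2 was not among the nearest 5 when library totals alone set the scale, where WRKY65 was first (0.973) and PIP1-3 second (0.964). By rank correlation none of the 5 was among the nearest 5.

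**Figure D5:**
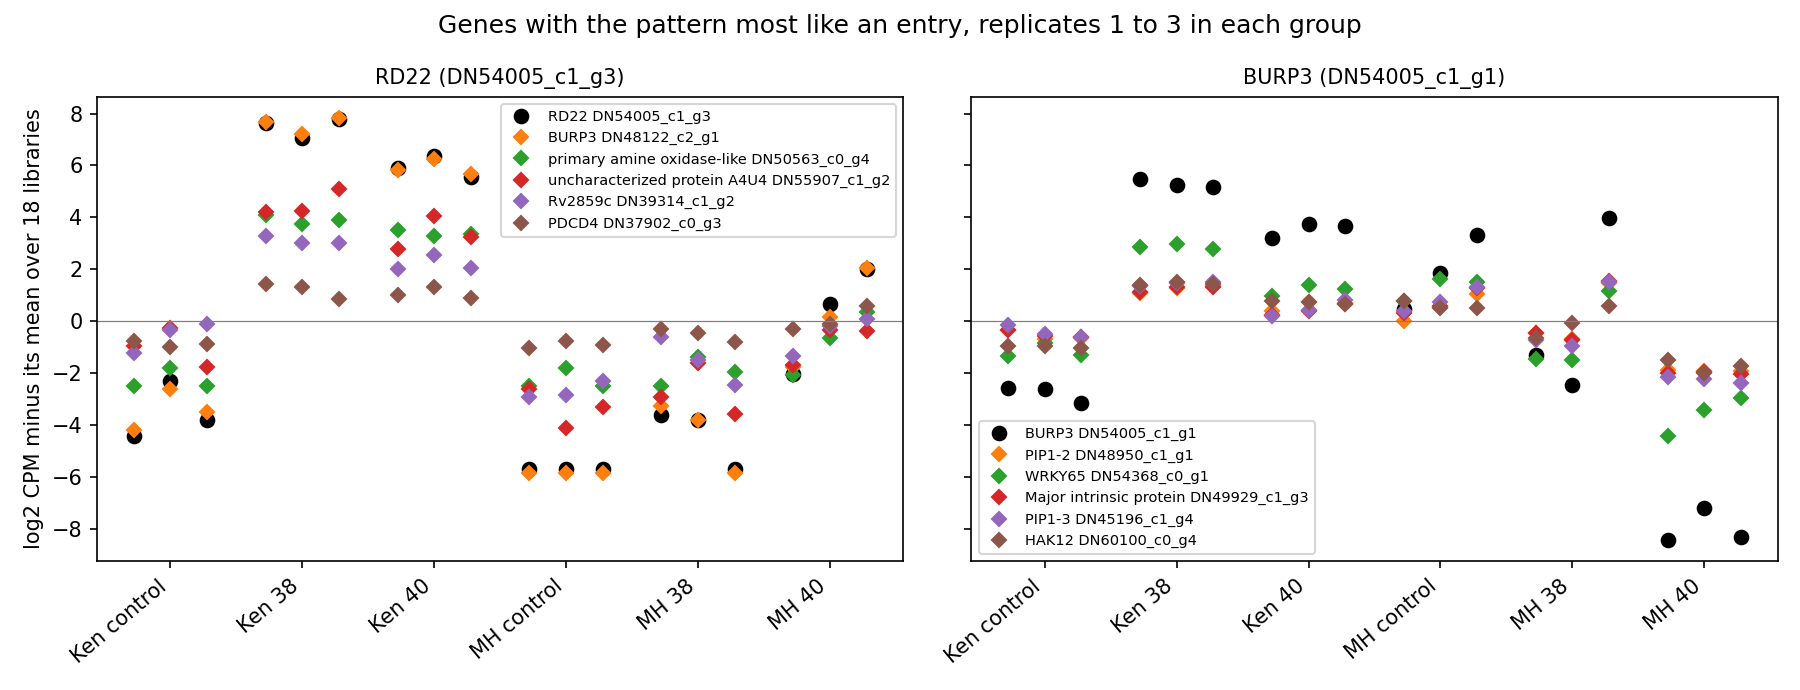
Log2 CPM of RD22 (left) and BURP3 TRINITY_DN54005_c1_g1 (right) as black circles, each with its 5 most similar described genes as diamonds, minus the gene's mean over 18 libraries, with replicates 1 to 3 side by side in each group. PIP1-2, PIP1-3 and the major intrinsic protein on the right are highest in Ken 38 and lowest in MH 40, like BURP3 TRINITY_DN54005_c1_g1, over a smaller range, and all have their highest MH 38 value in replicate 3.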

How the data were processed

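RNA from 18 leaf libraries was extracted with Trizol and sequenced as Illumina libraries, per the labels' protocols, and adapters were trimmed with cutadapt 1.9, per the submitters' processing notes. Which assembler settings and which quantifier made the table is not stated in the labels. The deposited table gives an estimated count per assembled gene and library, which the authors derived from their reads without normalisation; 89.8 to 96.8% of the values per library are whole within a tolerance of 1e-06. It also gives TPM, which the authors scaled by gene length and library and whose sums ran from 967894 to 991008. Estimated counts were rounded and tested in edgeR 4.0.16 (R 4.3.3): filterByExpr with min.count 10 and min.total.count 15 kept 70022 genes, TMM factors scaled the libraries, and 1 quasi-likelihood model of 6 group means (12 residual degrees of freedom) gave 11 comparisons. Calls needed an adjusted p (Benjamini-Hochberg, all tested genes) below 0.05. The SE of a fitted change was its absolute value divided by the square root of the quasi-likelihood F statistic. It is not a separate error estimate from the model. TPM ratios can differ from fitted changes, which carry the TMM factors. Log2 CPM for likeness used a prior count of 2.

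The 3 entries and all lists were chosen with earlier results of these data known. Other BURP entries are named if they reach 10 TPM in a group. From each pathway list the 2 called genes with the smallest adjusted p per heated group that reach 10 TPM are named, and for likeness the 5 nearest genes. Ratios between entries use libraries with over 3 counts in both. Without strand or sequence information, near-identical copies cannot be separated, and no sequence of the entries was used here. Same-numbered libraries of different groups did not deviate together. The model fit was tested on simulated counts with changes planted in Ken 38. A correlation ranking was tested on random profiles with a planted copy, and the other steps were not tested in this way. Alternatives were DESeq2 1.42.0, other scalings and filters, other thresholds, fits of only the groups compared, a replicate block, and each library left out. After seeing the data, MH 38 replicate 3 and MH control replicate 3 were left out together, and accidental list members were removed. Python 3.11.15 with pandas 2.3.3 and matplotlib 3.10.9 handled tables and plots.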

Additional observations from a re-analysis of the deposited data

Results flagged for a closer look

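6 tested results and 1 untested result are listed because the heat response differed between MH and Ken. Of all tested genes, 10.8% were called for this difference at 38/33 °C and 21.4% at 40/35 °C. Of the 10 tested BURP entries outside the chosen 3, 20% were called at each regime. BURP3 TRINITY_DN41400_c0_g1 fell in Ken and was near 0 in MH at every regime, so its response in MH minus that in Ken was 5.02 at 38/33 °C and 6.25 at 40/35 °C on the log2 scale (edgeR adjusted p = 0.0012 and 0.0038); the second call was lost without MH 40 replicate 1 (5.13, edgeR adjusted p = 0.20). BURP3 TRINITY_DN41449_c0_g1 fell in MH 38 and was low throughout Ken, with a difference of -5.05 at 38/33 °C (edgeR adjusted p = 0.020), lost under 8 of 21 alternatives (adjusted p up to 0.064), 7 of which left out 1 library. BURP3 TRINITY_DN39971_c0_g2 fell further in MH than in Ken at 40/35 °C by -4.34 (edgeR adjusted p = 0.034), a call lost under 14 of 21 alternatives, with values from -4.83 to -3.41 and edgeR adjusted p up to 0.25. Both materials ended near the floor, at 0.11 TPM in Ken 40 and 0.127 TPM in MH 40. Their controls differed, at 24.9 TPM in Ken and 510 TPM in MH. MYC2 TRINITY_DN56287_c0_g3 differed by -2.29 at 38/33 °C (edgeR adjusted p = 0.0010). PAE8 TRINITY_DN63659_c1_g1 differed by -2.42 at 40/35 °C (edgeR adjusted p = 0.00011). Neither the MYC2 nor the PAE8 difference was followed through the alternatives. The call of this MYC2 entry in MH 38 against MH control was lost under 5 of 15 alternatives. For BURP3 TRINITY_DN54005_c1_g1 every Ken 40 library lay above its controls and every MH 40 library below its own, a difference of -17.01 that was not tested. MH 38 replicate 3 also parts from its group in BURP3 TRINITY_DN58764_c0_g1, at 1.72 TPM against 190 and 249 TPM.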

How the results depend on the processing

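Over all alternatives, 343 fitted changes of RD22 and the BURP3 entries moved by less than the replicate spread, 20 moved further and 5 changed sign. All 5 were BURP3 TRINITY_DN54005_c1_g1 in MH 38 against MH control, where the libraries overlapped: 0.12 became -0.41 with the replicate block, -0.32 and -0.06 without MH control replicates 1 and 2, -4.11 without MH 38 replicate 3 and -3.13 without MH 38 replicate 3 and MH control replicate 3. Leaving out 1 library gave -4.11 to 1.11 there. For the same entry, library totals as the only scaling gave 8.65 for Ken 38 and 6.81 for Ken 40 against Ken control and -11.33 for MH 40 against Ken 40. TMM factors of described genes gave 8.36 for Ken 38, and the ratio of mean TPM gave 8.56 and 6.73 for Ken 38 and Ken 40. Without MH 38 replicate 3 and MH control replicate 3 together it was -6.59 for MH 40 against MH 38, -7.10 for MH 38 against Ken 38, and -11.22 and -16.06 for the difference of responses at 38/33 and 40/35 °C. Leaving out 1 library gave -11.50 to -6.59, -7.09 to -2.29, -12.20 to -6.97 and -17.73 to -16.05 for these, and -12.62 to -11.60 for MH 40 against Ken 40. It gave 10.55 to 12.13 and 9.01 to 10.59 for RD22 in Ken 38 and Ken 40, and 10.78 to 11.79 and 9.10 to 10.11 for BURP3 TRINITY_DN48122_c2_g1. For MH 40 against MH 38 it gave 4.42 to 6.08 and 3.78 to 5.92. For BURP3 TRINITY_DN48122_c2_g1, MH 40 was at least 19.99 to 77.0-fold above MH control and -6.51 to -4.55 against Ken 40 with 1 library left out.

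Of the other BURP entries, 2 were called for the difference of responses at 38/33 °C: 4 without MH 38 replicate 3 and MH control replicate 3, 1 at an adjusted p below 0.01, and 1 to 5 with 1 library left out. At 40/35 °C 2 were called: 1 with library totals, TMM factors of described genes, no filter, an adjusted p below 0.01 or both MH libraries left out, 6 with DESeq2, and 0 to 2 with 1 library left out. The MYC2 and MYB2 list had 16 calls in place of 10 in Ken 38 and 2 in place of 7 in MH 38 when only the groups compared were fitted. It had 2 in MH 38 at an adjusted p below 0.01, and 4 to 11 there with 1 library left out. The wall-loosening list had 26 calls in place of 13 in Ken 38 when only the groups compared were fitted. Of the 5 nearest genes of BURP3 TRINITY_DN54005_c1_g1, 3 remained on log2(TPM + 1), 0 by rank correlation and 2 with library totals. For RD22 and BURP3 TRINITY_DN48122_c2_g1, 2 remained by rank correlation and 2 without both MH libraries. Single tests of other genes were unchanged in call in 1285 cases and lost in 57, and none changed sign; adjusted p-values that DESeq2 left blank are not counted. The cause of these shifts was not tested. Library totals as the only scaling put the median log2 change of all genes at 0.97 for Ken 38, 0.76 for Ken 40, 1.55 for MH 38 and 2.02 for MH 40, and turned the ABA list from more falls to more rises. Correlations of same-numbered libraries ran from -0.28 to 0.24, so the numbers did not pair them. Depth limits the levels where a library held about 10 counts or fewer. This was so for RD22 and BURP3 TRINITY_DN48122_c2_g1 in MH control, MH 38 and most Ken control libraries. For BURP3 TRINITY_DN54005_c1_g1 it was so in MH 40.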
